A study of Mus musculus with 12 samples.

Results

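The comparison sets 3 libraries of mouse bone-marrow-derived macrophages labelled DKO, in which both Cbl and Cbl-b are to be missing, against 3 labelled Cbl-b-/-, so that the labels differ by the presence of Cbl. These 6 libraries were taken by their sample titles from 12 in all, and the other 6 are 3 labelled wild type (WT) and 3 labelled Cbl-/-. In every group, marrow cells were grown in medium with a supernatant of L cells, which supplies the growth factor CSF-1, and RNA was taken from the adherent cells on day 9 for stranded sequencing libraries of messenger RNA. The labels give no mouse strain, no animal age, and no account of how either allele was disrupted or whether the loss of Cbl was limited to some cells. They do not say that replicates came from separate animals or cultures, so the p-values reflect no more than the variation among these libraries, which may be technical.

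Cbl and Cbl-b are related E3 ubiquitin ligases that bind activated tyrosine kinases and mark them, or proteins bound to them, for endocytosis and degradation. In macrophages the CSF-1 receptor is a well known substrate of Cbl, and CSF-1 supports the survival, growth and differentiation of these cells. The ligases share binding partners, and the comparison asks which genes differ with the further loss of Cbl when Cbl-b is already missing, as far as the labels hold.

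The measurements are read counts per gene, given here as CPM, counts scaled to a common library total, with trimmed-mean factors between libraries. Total counts were 21048103 to 34099547 in the libraries labelled Cbl-b-/- and 32863268 to 43946503 in those labelled DKO. The first principal component of the 6 libraries held 58.6% of the variance and set the groups apart, and the second held 16.7% and set the library labelled Cbl-b-/- 3, the least deep, at -31.2 apart from its partners at 18.3 and 24.3. Between replicates, the biological coefficient of variation reached 7.88% under the label Cbl-b-/- and 11.9% under DKO. A chi-square of the counts, per degree of freedom, was 44.7 and 55.3 between the library labelled DKO 3 and its partners. It was 10.2 between DKO 1 and DKO 2 and 7.83 to 10.5 among the libraries labelled Cbl-b-/-. No gene of the table lacked counts in the library WT 1, so a gene without reads there has no value. Markers of macrophages were present in all 6 libraries. Cd68, a lysosomal membrane protein of macrophages, had 1229.6, 1112 and 1099 CPM in the libraries labelled Cbl-b-/- and 1160.00, 1253 and 1031 CPM in those labelled DKO. Lyz2, lysozyme, had 16409, 17320.0 and 14934 CPM and 12417, 14045 and 15765 CPM in the same order, and neither gene passed the test (adjusted p = 0.99 and 0.15).

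Both targeted genes were read as a check of the labels. In GRCm38, Cbl (ENSMUSG00000034342, chromosome 9, 44142976 to 44234049) had 143, 137 and 138 CPM in the libraries labelled Cbl-b-/- 1, 2 and 3 and 40.96, 36.8 and 35.01 CPM in those labelled DKO 1, 2 and 3 (log2 fold change -1.89, SE 0.08, adjusted p = 7.9e-08). Its transcript fell 3.7005-fold and was not abolished. Cblb (ENSMUSG00000022637, chromosome 16, 52031225 to 52208048) had 54.5, 54.4 and 49.4 CPM in the libraries labelled Cbl-b-/-, 73.4, 67.96 and 73.7 CPM in those labelled DKO (log2 fold change 0.44, SE 0.08, adjusted p = 0.0018) and 62.2, 55.5 and 60.6 CPM in WT. The counts of Cblb thus do not bear out a loss of its transcript under either label, although such counts cannot show an allele whose transcript is made but is not functional. The groups are therefore named by their labels throughout, and every direction below rests on those labels.

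The libraries labelled DKO differed broadly from those labelled Cbl-b-/-. Among tested members of gene lists, 34 of 35 interferon-stimulated genes, 8 of 10 granule genes, 13 of 18 chemokines and 12 of 21 matrix genes were higher in them. Lower were 11 of 17 genes of resident-type macrophages, the 3 chains of C1q and both receptors for C5a. The members of the lists were chosen with earlier results of these data known, so such counts are no independent test. Of 12348 genes tested, 2760 (22.4%) passed an adjusted p of 0.05 in edgeR (quasi-likelihood, adjusted by Benjamini-Hochberg over all genes tested), the test behind every adjusted p given here. There were 1553 genes higher in the libraries labelled DKO (12.6% of those tested) and 1207 lower (9.77%). The counts of list members given below are to be read beside these shares. By at least 2-fold, 435 were higher and 195 lower, and the median absolute log2 fold change of the called genes was 0.51. Scaled by total counts in place of trimmed means, 1083 were higher and 1933 lower, so that 35.9% of the calls were increases against 56.3%. Without the library labelled Cbl-b-/- 1, 2 or 3, the genes called lower numbered 771, 798 and 793. In all, 1875 genes passed without the library labelled Cbl-b-/- 3, and 3590 without the library labelled DKO 3. In 5069 genes (41.1%) the 3 libraries labelled DKO lay all above or all below the 3 labelled Cbl-b-/-. Set beside all 9 other libraries, 2230 of the 2760 called genes (80.8%) had every library labelled DKO outside the range of the rest, as did 3206 of all 12348 genes tested.

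**Figure D1:**
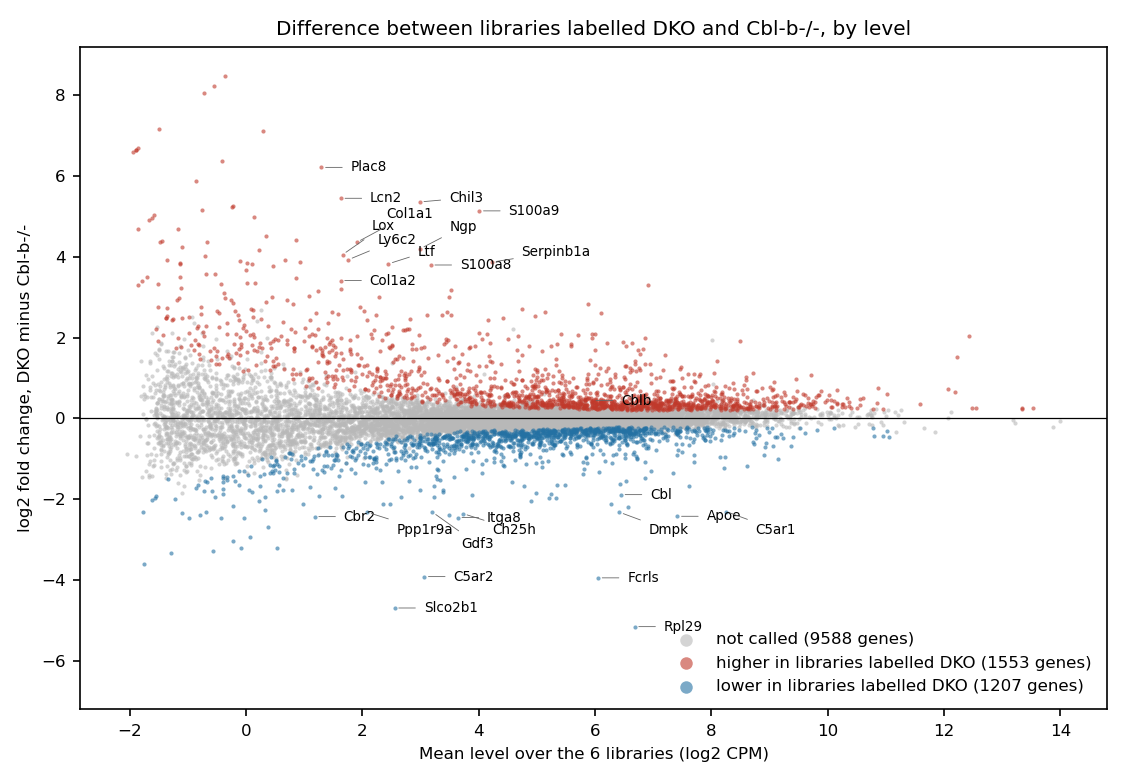
The log2 fold change of each of the 12348 genes tested (libraries labelled DKO minus those labelled Cbl-b-/-) is plotted against its mean level over the 6 libraries in log2 CPM. Red points are the 1553 genes called higher and blue points the 1207 called lower, and the named genes are Cbl, Cblb and the 12 largest increases and 12 largest decreases that met the naming rule.

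Genes of neutrophil granules and of classical monocytes gave most of the largest increases. Plac8, a small cysteine-rich protein of myeloid cells, had 3, 2 and 0 reads in the libraries labelled Cbl-b-/- and 146, 133 and 214 in those labelled DKO, or 0.0871, 0.0643 and 0 CPM against 4.07, 4.23 and 5.19 CPM (log2 fold change 6.22, SE 0.66, adjusted p = 1.7e-06). Lcn2, lipocalin 2, a granule protein that binds bacterial siderophores, had 0.145, 0.0643 and 0.184 CPM against 4.76, 5.72 and 6.57 CPM (log2 fold change 5.45, SE 0.44, adjusted p = 7.6e-07). Chil3, a chitinase-like protein secreted by myeloid cells, had 0.319, 0.611 and 0.0919 CPM against 13.3, 12.6 and 19.2 CPM (log2 fold change 5.36, SE 0.41, adjusted p = 7.5e-07). The groups lay far apart in all of these, whose naming required groups that did not overlap. Levels in the libraries labelled Cbl-b-/- were near the lower limit of the counts.

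S100a9 and S100a8 encode the subunits of calprotectin, which sequesters metal ions. S100a9 had 0.755, 0.803 and 1.15 CPM in the libraries labelled Cbl-b-/- and 26.9, 26.7 and 39.2 CPM in those labelled DKO (log2 fold change 5.14, SE 0.25, adjusted p = 7.9e-08). S100a8 had 1.42, 1.06 and 1.01 CPM and 13.6, 12.4 and 23.3 CPM (log2 fold change 3.80, SE 0.29, adjusted p = 2.1e-06), and for both genes the library labelled DKO 3 was the highest. Ltf, the iron-binding granule protein lactoferrin, rose from 0.698 ± 0.19 to 9.83 ± 0.83 CPM (SD, n = 3), and Ngp, neutrophilic granule protein, from 0.827 ± 0.29 to 14.8 ± 1.2 CPM (SD, n = 3). Ly6c2, a surface marker of classical monocytes, rose from 0.402 ± 0.089 to 6.04 ± 0.69 CPM (SD, n = 3), and Serpinb1a, an inhibitor of neutrophil serine proteases, from 2.31 ± 0.98 to 35.1 ± 1.5 CPM (SD, n = 3).

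Of 16 genes listed as markers of neutrophils and their granules, 10 were tested, 8 were higher and Mmp8, a collagenase, was lower (42.2, 49.97 and 38.6 CPM against 20.5, 17.01 and 23.5 CPM). Among the 8 were the serine proteases Ctsg, cathepsin G (0.137 ± 0.19 to 3.203 ± 0.35 CPM), and Prtn3, proteinase 3 (0.104 ± 0.094 to 2.24 ± 1.01 CPM), with low counts in both groups. Elane, Mpo, Camp, Ly6g and Retnlg, which define granulocytes and their precursors, had no value in the table, and Cxcr2 was too low to be tested. The summed level of the list was 53.5 to 68.2 CPM in the libraries labelled Cbl-b-/- and 118 to 141 CPM in those labelled DKO. Of 14 markers of classical monocytes and progenitors, 13 were tested, of which 10 were higher and Cd34 was lower, with a median log2 fold change of 1.85. They included Vcan, the matrix proteoglycan versican, with 20.1, 22.4 and 20.4 CPM against 72.9, 66.6 and 86.6 CPM (log2 fold change 1.85, SE 0.11, adjusted p = 4.4e-07) and Ms4a4c (1.97 ± 0.37 to 8.56 ± 1.9 CPM). The chemokine receptor gene Ccr2, a defining marker of these monocytes, did not pass (log2 fold change 0.31, adjusted p = 0.12). The summed level of that list was 193 to 213 CPM in the libraries labelled Cbl-b-/- and 294 to 355 CPM in those labelled DKO. Of the markers of other blood cells, 4 of 5 tested for dendritic cells and 2 of 3 for mast cells were higher and none lower. For B cells 1 of 2 was higher and none lower, and for erythroid cells and megakaryocytes 1 of 3 was higher and 2 lower. Fscn1, Zbtb46, Ccl22, Gata2 and Kit were low, with means of 0.159, 0.394, 0.538, 0.24004 and 0.494 CPM in the libraries labelled Cbl-b-/-. Their means were 1.855, 1.281, 1.6003, 1.6805 and 1.731 CPM in those labelled DKO. At 5 CPM or more in 3 libraries, only Bst2 of the dendritic cell markers and no mast cell marker was tested. Bst2 is also a listed interferon-stimulated gene and Kit a listed progenitor marker. Ccl22 lost its call in 5 alternative analyses. The only T or NK cell marker tested, Lck, did not pass. The part of such cells in these results was not tested. In RNA from a whole culture, more or fewer cells of a type and more or less RNA per cell cannot be told apart.

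Collagen genes formed a further group among the largest increases. Col1a1, the alpha 1 chain of type I collagen, had 0.348, 0.4499 and 0.138 CPM in the libraries labelled Cbl-b-/- and 7.94, 6.55 and 5.94 CPM in those labelled DKO (log2 fold change 4.36, SE 0.34, adjusted p = 1.6e-06). Col1a2, the alpha 2 chain, had 0.435, 0.643 and 0.413 CPM and 5.66, 6.23 and 4.29 CPM (log2 fold change 3.41, SE 0.29, adjusted p = 5.1e-06). Lox, an enzyme that crosslinks collagen, had 0.406, 0.482 and 0.0459 CPM and 5.27, 5.66 and 5.99 CPM (log2 fold change 4.06, SE 0.41, adjusted p = 1.6e-05). In WT, Col1a1 had 1.19, 1.21 and 2.64 CPM, so its level in the libraries labelled Cbl-b-/- was also below that of WT in each library. Of 8 stromal and endothelial markers tested, 4 were higher (Col1a1, Col1a2, Acta2 and Pecam1) and Vwf was lower. Pdgfrb, Kdr and Cdh5 did not pass, and Dcn and Cxcl12 were too low to be tested. Col3a1 and Lum had no value in the table. The summed level of the 10 members in the table was 116 to 118 CPM in the libraries labelled Cbl-b-/- and 99.1 to 122 CPM in those labelled DKO, so the groups overlapped in that sum. Col1a1, Col1a2, Acta2 and Pecam1 were a small part of it, with means of 0.312, 0.497, 1.03 and 0.378 CPM and 6.81, 5.39, 3.35 and 1.34 CPM in the same order of groups. The sum therefore does not follow these 4 genes. The part of stromal cells in the collagen result was not tested.

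The listed interferon-stimulated genes rose almost as a body. These genes encode proteins that block viral entry, translation and replication, and they are induced when type I interferon activates transcription factors of the STAT and IRF families through its receptor. All 35 listed genes were tested, and 34 were higher in the libraries labelled DKO while Ifi27 was lower (43.7, 50.6 and 50.02 CPM against 35.9, 36.0000 and 32.3 CPM). Their median log2 fold change was 1.19, against 0.0028 over all genes tested, and 24 rose by at least 2-fold. In each of the 34, all 3 libraries labelled DKO lay above all 3 labelled Cbl-b-/-. The groups lay apart in this way, in either direction, in 2747 of the 2760 called genes. The count was 34 higher and 1 lower under each of the 14 alternative analyses, which reuse the same list and libraries.

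Ifi44 (ENSMUSG00000028037, chromosome 3, 151730922 to 151749960), an interferon-induced cytoplasmic protein, had 20.3, 20.4 and 17.1 CPM in the libraries labelled Cbl-b-/- and 107, 106 and 144 CPM in those labelled DKO (log2 fold change 2.62, SE 0.13, adjusted p = 1.6e-07). Its neighbour Ifi44l had 5.81, 5.11 and 5.79 CPM and 27.8, 29.9 and 32.1 CPM (log2 fold change 2.43, SE 0.11, adjusted p = 1.1e-07). Ifit3, a member of the family that binds viral RNA and its translation machinery, had 20.7, 21.4 and 19.2 CPM and 80.998, 80.7 and 93.99 CPM (log2 fold change 2.06, SE 0.09, adjusted p = 9.7e-08). Among these, each library labelled DKO was at least 3 times the highest of those labelled Cbl-b-/-. Oasl2, of the oligoadenylate synthetase family, had 75.4, 74.9 and 74.1 CPM and 205, 228 and 231 CPM (log2 fold change 1.57, SE 0.07, adjusted p = 1.1e-07). Further members with similar changes, chosen after their values were seen, were Isg15, a ubiquitin-like modifier (9.97 ± 2.3 to 41.1 ± 1.2 CPM), Rsad2, viperin (30.6 ± 2.5 to 98.6 ± 14 CPM), Usp18, which removes Isg15 from proteins (12.98 ± 0.998 to 45.2 ± 4.05 CPM), and Zbp1, a sensor of Z-form nucleic acid (6.29 ± 2.9 to 36.2 ± 2.9 CPM).

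The guanylate-binding proteins and immunity-related GTPases, which attack vacuoles that hold pathogens and respond mainly to interferon gamma, moved the same way. Of 13 tested members 12 were higher and none was lower, with a median log2 fold change of 1.42; Gbp8 did not pass. Gbp2 had 6.996, 8.001 and 8.73 CPM in the libraries labelled Cbl-b-/- and 24.4, 30.4 and 31.3 CPM in those labelled DKO (log2 fold change 1.87, SE 0.13, adjusted p = 1.7e-06). Gbp7 rose from 6.89 ± 0.695 to 23.6 ± 1.4 CPM, Gbp3 from 5.95 ± 0.26 to 15.8 ± 2.3 CPM and Irgm1 from 54.3 ± 2.6 to 110.5 ± 7.7 CPM (SD, n = 3). Several of these genes lie in clusters of near-identical copies, and the sources used here do not say how reads that match more than 1 copy were counted.

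Among the factors that carry interferon signals, the receptor chains did not pass the test while several transcription factors rose. Ifnar1 and Ifnar2, the chains of the type I receptor, had log2 fold changes of -0.05 and -0.15 (adjusted p = 0.67 and 0.17). Irf7, which amplifies interferon production, had 33.7, 29.1 and 32.8 CPM in the libraries labelled Cbl-b-/- and 116, 129 and 106 CPM in those labelled DKO (log2 fold change 1.88, SE 0.09, adjusted p = 1.6e-07). Stat2 and Irf9, subunits of the complex ISGF3, rose 1.86-fold and 1.37-fold, and Irf1 rose 1.26-fold. Irf8, a lineage factor of mononuclear phagocytes, fell from 42.3 ± 3.6 to 31.96 ± 2.6 CPM (SD, n = 3), and Stat5b fell too (log2 fold change -0.32, adjusted p = 0.017). Of the 19 tested members, 5 were higher and 2 lower. Ifnb1 was too low to be tested.

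Because the interferon genes moved together, the 250 bases before their RefSeq transcription starts (GRCm38.p6) were searched on both strands for GAAANNGAA, the repeat core of the interferon-stimulated response element. Among the 9606 tested genes with a promoter in the RefSeq table, 7.59% held the motif. It was present in 14 of the 26 interferon-stimulated genes with a promoter (53.8%) and in 8 of the 8 guanylate-binding proteins and related GTPases with one. Both lists hold genes known for their response to interferon. Their shares therefore follow from membership and are no separate evidence about the libraries labelled DKO. Over all genes it was present in 146 of 1215 promoters of genes higher in the libraries labelled DKO, 62 of 942 of those lower (6.58%) and 521 of 7449 of those not called (6.99%). A match is a description of the letters and not a measured binding site, and 9 motif spellings were searched in all. A stricter spelling nested in the first, GAAANTGAA, was found in 1.85% of all promoters and in 8 of the 26 interferon-stimulated genes. The following stretches show the motif, in capitals, with neighbouring matches overlapping in some; they were chosen after the values were seen, from genes whose stretch lies before or at the annotated start. Each is written on the gene's own strand.
Ifit3 (chr19:34583354-34583455, plus strand): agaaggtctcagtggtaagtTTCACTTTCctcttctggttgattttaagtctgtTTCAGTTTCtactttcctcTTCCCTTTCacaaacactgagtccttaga
Isg15 (chr4:156200856-156200916, minus strand): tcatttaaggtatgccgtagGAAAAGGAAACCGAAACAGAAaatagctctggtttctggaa
Rsad2 (chr12:26456543-26456591, minus strand): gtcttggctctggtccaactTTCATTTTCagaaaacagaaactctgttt
Gbp3 (chr3:142559980-142560034, plus strand): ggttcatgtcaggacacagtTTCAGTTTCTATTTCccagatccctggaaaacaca
Gbp7 (chr3:142530264-142530312, plus strand): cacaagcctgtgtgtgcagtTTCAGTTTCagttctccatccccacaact
Ifit3 and Isg15 hold 3 matches each, Gbp3 holds 2, and Rsad2 and Gbp7 hold 1 each. The kB-type spelling GGGANNTTC was found in 3.71% of all promoters, in 5.19% of those of genes higher and in 3.40% of those of genes lower in the libraries labelled DKO. The AP-1-type spelling TGANTCA was found in 5.43%, 9.55% and 6.16% in the same order. The ETS-type spelling CCGGAAG was found in 16.3%, 11.8% and 10.4%.

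Antigen presentation genes were higher as well. Of 19 tested genes of the class I pathway, 15 were higher and none lower, with a median log2 fold change of 0.50 and no change of 2-fold or more. B2m, the invariant chain of class I molecules, had 1466, 1449 and 1275 CPM in the libraries labelled Cbl-b-/- and 2041, 2290.1 and 2764 CPM in those labelled DKO (log2 fold change 0.76, SE 0.11, adjusted p = 3.6e-04). Nlrc5, which drives transcription of class I genes, rose from 42.6 ± 2.5 to 69.7 ± 3.5 CPM and Psme2, a proteasome activator subunit, from 65.7 ± 6.3 to 109 ± 7.5 CPM (SD, n = 3). H2-D1 did not pass (log2 fold change 0.07, adjusted p = 0.45), and class I genes share sequence with one another, so their separate values are uncertain. Of 11 class II pathway genes, 5 were higher and none lower. H2-Ab1 had 18.96, 23.2 and 20.4 CPM and 37.2, 43.9 and 37.4 CPM (log2 fold change 0.92, SE 0.11, adjusted p = 8.6e-05), while the invariant chain Cd74 rose from 123 ± 4.2 to 209 ± 16 CPM and Ciita, the transcriptional coactivator of class II genes, from 0.661 ± 0.38 to 1.71 ± 0.23 CPM (SD, n = 3). The peptide loading genes H2-DMa and H2-DMb1 did not pass (log2 fold changes -0.03 and 0.09).

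Chemokines that attract monocytes rose strongly. Ccl7 had 18.8, 27.96 and 20.7 CPM in the libraries labelled Cbl-b-/- and 189, 214 and 261 CPM in those labelled DKO (log2 fold change 3.30, SE 0.15, adjusted p = 1.1e-07). Ccl2 had 139, 171 and 148 CPM and 559, 562 and 614 CPM (log2 fold change 1.92, SE 0.09, adjusted p = 1.1e-07), and Ccl4 22.5, 24.2 and 22.7 CPM and 59.3, 60.4 and 54.2 CPM (log2 fold change 1.32, SE 0.08, adjusted p = 8.1e-07). Both Ccl2 and Ccl7 signal through Ccr2, which did not pass. Of 18 tested chemokine genes, 13 were higher and 3 lower, with a median log2 fold change of 1.09. Cxcl10, an interferon-induced chemokine for T cells, rose from 21.4 ± 1.6 to 58.99 ± 14 CPM (SD, n = 3). Cxcl14, a chemokine of tissues at rest, fell from 68.6, 62.2 and 64.8 CPM to 16.2, 18.03 and 15.5 CPM (log2 fold change -1.98, SE 0.09, adjusted p = 9.7e-08), and Pf4 from 81.2 ± 8.3 to 30.99 ± 2.1 CPM. Cxcl16, which also acts as a scavenger receptor, fell less (log2 fold change -0.41, adjusted p = 0.0013). Among the receptors, Cxcr4, the receptor that retains cells in marrow, had 111, 93.9 and 86.4 CPM against 39.1, 41.7 and 35.03 CPM (log2 fold change -1.33, SE 0.10, adjusted p = 3.7e-06). Of 17 tested receptors and migration genes, 7 were higher and 4 lower.

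Of 18 tested inflammatory cytokines and mediators, 9 were higher and Tnfsf9 was lower. Acod1, which makes the antimicrobial metabolite itaconate, had 10.7, 18.7 and 14.2 CPM in the libraries labelled Cbl-b-/- and 97.3, 105 and 107 CPM in those labelled DKO (log2 fold change 2.83, SE 0.15, adjusted p = 2.9e-07). Il1rn, the antagonist of the interleukin 1 receptor, had 8.099, 10.7 and 8.82 CPM and 33.7, 35.4 and 39.4 CPM (log2 fold change 1.98, SE 0.12, adjusted p = 7.3e-07). Tnf rose little (log2 fold change 0.30, adjusted p = 0.044), and Il1b and Il10 did not pass (log2 fold changes -0.48 and 0.40). Il6, Il12a, Il12b and Il23a had no value in the table. Of 20 genes for NF-kB subunits, inhibitors and inducible regulators, 9 were higher and Marcks was lower. Without the library labelled Cbl-b-/- 1, 5 were higher. Traf1, a signalling adaptor, had 6.73, 5.91 and 7.95 CPM and 27.2, 29.04 and 23.3 CPM (log2 fold change 1.96, SE 0.13, adjusted p = 1.4e-06), and Tnfaip3, the ubiquitin-editing inhibitor A20, had 31.4, 29.9 and 25.4 CPM and 60.7, 58.9 and 55.3 CPM (log2 fold change 1.01, SE 0.09, adjusted p = 1.5e-05). Rela and Nfkb1, which encode subunits of NF-kB, did not pass (log2 fold changes -0.09 and -0.05).

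Surface molecules of activation were divided. Cd69, an early activation marker, rose from 2.33 ± 0.495 to 10.7 ± 1.8 CPM and Cd274, the inhibitory ligand PD-L1, from 13.6 ± 1.5 to 40.5 ± 2.4 CPM, while Cd83 fell from 19.7 ± 0.81 to 8.15 ± 1.2 CPM (SD, n = 3). Of 15 tested members, 7 were higher and 2 lower. Cd40 and Cd86, costimulatory receptors, did not pass (log2 fold changes 0.42 and 0.41). Of 19 Toll-like receptors and partners, 5 were higher and Tlr9 was lower. Without the library labelled DKO 3, 4 were lower. Over all genes tested, 12.6% were higher and 9.77% lower. Cd180 rose from 379 ± 36 to 713 ± 11 CPM, Cd14, the co-receptor for endotoxin, from 173 ± 5.8 to 283 ± 4.97 CPM and Tlr2 from 138 ± 14 to 215 ± 15 CPM (SD, n = 3), whereas Tlr4 did not pass (log2 fold change 0.16, adjusted p = 0.26). Of the cytokine signalling inhibitors, Socs3 rose from 9.696, 9.704 and 10.7 CPM to 20.3, 24.5 and 18.7 CPM (log2 fold change 1.08, SE 0.12, adjusted p = 7.4e-05). Cish, Socs1 and Ptpn6 also passed, making 4 of 13 tested, against 22.4% of all genes in either direction. The calls of these 3 were lost in 8, 4 and 6 of the alternative analyses.

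Matrix genes rose beyond the collagens. Of 21 tested matrix proteins, proteases and inhibitors, 12 were higher and Mmp8 was lower, with a median log2 fold change of 1.25. Spp1, osteopontin, rose from 2712, 2487 and 2249.6 CPM to 6242, 6683 and 8502 CPM (log2 fold change 1.53, SE 0.11, adjusted p = 3.2e-06). Thbs1, thrombospondin 1, had 1.74, 2.25 and 2.43 CPM and 12.1, 11.2 and 11.6 CPM (log2 fold change 2.46, SE 0.16, adjusted p = 1.1e-06). Mmp14, a membrane-bound protease that cleaves collagen, rose from 2.28 ± 0.78 to 10.5 ± 0.22 CPM and Fn1, fibronectin, from 2.42 ± 0.54 to 8.33 ± 2.1 CPM (SD, n = 3). Of 12 tested genes of osteoclast differentiation, which bone-marrow macrophages can undergo, 9 were higher and Itgb3 was lower. Dcstamp, needed for the fusion of osteoclast precursors, had 5.78, 3.44 and 3.77 CPM and 18.6, 16.9 and 15.8 CPM (log2 fold change 1.97, SE 0.18, adjusted p = 1.3e-05). Ctsk, the collagen-degrading protease cathepsin K, rose from 3.05 ± 0.55 to 8.56 ± 0.29 CPM and Acp5, tartrate-resistant acid phosphatase, from 1.34 ± 0.46 to 4.24 ± 1.1 CPM (SD, n = 3). Nfatc1, the master transcription factor of the osteoclast, and Tnfrsf11a, the receptor RANK, did not pass (log2 fold changes -0.10 and 0.14).

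Kinases and growth factors bear on what Cbl proteins are known for. Met, the receptor for hepatocyte growth factor and a known substrate of Cbl, had 1.97, 2.25 and 2.71 CPM in the libraries labelled Cbl-b-/- and 20.6, 17.6 and 23.1 CPM in those labelled DKO (log2 fold change 3.17, SE 0.16, adjusted p = 1.7e-07). Src, a kinase that binds and phosphorylates Cbl, had 1.77, 1.64 and 1.47 CPM and 7.63, 7.601 and 5.72 CPM (log2 fold change 2.09, SE 0.20, adjusted p = 1.8e-05), and Fgr, of the same family, 21.7, 24.2 and 17.9 CPM and 45.2, 53.9 and 50.4 CPM (log2 fold change 1.23, SE 0.12, adjusted p = 1.8e-05). All 3 lay without overlap between the groups, as did 41.1% of all genes tested, in either direction. Csf1r, the CSF-1 receptor, fell from 2205, 2284 and 2398 CPM to 1728, 1789 and 1611 CPM (log2 fold change -0.42, SE 0.07, adjusted p = 0.0011). Its ligand Csf1 rose from 2.67, 2.86 and 3.49 CPM to 17.97, 17.9 and 16.5 CPM (log2 fold change 2.55, SE 0.14, adjusted p = 2.4e-07). Mertk, a receptor for the uptake of dying cells, fell from 25.6, 27.1 and 27.2 CPM to 11.3, 13.96 and 12.4 CPM (log2 fold change -1.09, SE 0.10, adjusted p = 2.2e-05). Of 26 tested tyrosine kinases, 6 were higher and 4 lower (7 lower when scaled by total counts), and among 15 growth factors and cytokine receptors 4 were higher and 6 lower. Csf2rb, the shared chain of receptors for GM-CSF and interleukin 3, rose from 248 ± 6.3 to 358 ± 36 CPM, while Tgfbr2 fell from 139.6 ± 16 to 89.01 ± 3.04 CPM and Il6ra from 131 ± 6.7 to 93.4 ± 3.7 CPM (SD, n = 3).

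Feedback and immediate early genes of ERK signalling, which receptor kinases induce, were divided, with a median log2 fold change of 0.03. Dusp6, a phosphatase that inactivates ERK, had 162, 175 and 180.1 CPM in the libraries labelled Cbl-b-/- and 62.4, 59.7 and 64.7 CPM in those labelled DKO (log2 fold change -1.47, SE 0.07, adjusted p = 1.7e-07). Etv5, a transcription factor induced by ERK, had 134, 137 and 145 CPM and 73.4, 76.9 and 66.7 CPM (log2 fold change -0.94, SE 0.08, adjusted p = 5.6e-06). Spry1, a Sprouty inhibitor that binds Cbl, was low throughout, with 22, 30 and 19 reads against 8, 2 and 6 (log2 fold change -2.46, SE 0.56, adjusted p = 0.0061). Fosb fell from 6.304 ± 0.95 to 2.11 ± 0.36 CPM, whereas Egr2 rose from 4.11 ± 0.61 to 8.96 ± 0.091 CPM, Atf3 from 128 ± 7.2 to 195 ± 2.2 CPM and Fos from 220.4 ± 15 to 299.9 ± 19 CPM (SD, n = 3). Of 27 tested members, 5 were higher and 9 lower; 9 were higher without the library labelled DKO 3, and 5 were lower without the library labelled Cbl-b-/- 1. Of 19 tested members of the Cbl family and their adaptors, Cblb and Sh3kbp1, an endocytic adaptor of Cbl, were higher. Cbl, Spry1, Spry2 and Sh2b3 were lower. Over all genes tested, 22.4% were called in either direction. Sh2b3, an adaptor that restrains cytokine receptors, fell from 198, 208 and 216 CPM to 134, 147 and 119 CPM (log2 fold change -0.64, SE 0.08, adjusted p = 2.3e-04). Grb2 and Crk, which link Cbl to its partners, did not pass (log2 fold changes 0.07 and -0.12).

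Several of the largest decreases were in genes of resident-type macrophages, the self-renewing cells of tissues such as brain. Fcrls (ENSMUSG00000015852, chromosome 3, 87250758 to 87263738), an Fc-receptor-like gene best known from microglia, had 116, 129.5 and 135 CPM in the libraries labelled Cbl-b-/- and 7.41, 7.63 and 9.43 CPM in those labelled DKO (log2 fold change -3.95, SE 0.11, adjusted p = 3.1e-09). Slco2b1, an organic anion transporter, had 12.02, 9.86 and 13.6 CPM and 0.641, 0.318 and 0.388 CPM (log2 fold change -4.70, SE 0.27, adjusted p = 2.1e-07). Gas6, a bridge between dying cells and the receptor Mertk, had 289.9, 303 and 318 CPM and 101, 102 and 80.9 CPM (log2 fold change -1.68, SE 0.09, adjusted p = 2.9e-07). Each of these fell in all 3 libraries with no overlap, which the naming rule required of Fcrls and Slco2b1. Of all genes tested, 41.1% lay without overlap, in either direction. Itgb5, an integrin of uptake, fell from 549 ± 29 to 241 ± 19 CPM, Hpgd, which degrades prostaglandins, from 48.9 ± 3.6 to 11.9 ± 2.7 CPM and P2ry12, a purine receptor, from 6.295 ± 0.71 to 2.901 ± 0.77 CPM (SD, n = 3). Of the 17 tested genes of this list, 11 were lower and 2 higher, with a median log2 fold change of -0.91. Among those higher was Sparc, a matrix protein (0.160000 ± 0.16 to 2.74 ± 0.23 CPM).

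Apoe, the lipid carrier apolipoprotein E, fell from 287, 289 and 300.4 CPM to 57.1, 57.3 and 48.6 CPM (log2 fold change -2.42, SE 0.08, adjusted p = 1.2e-08). Mrc1, the mannose receptor, fell from 50.6, 60.8 and 67.7 CPM to 14.6, 14.6 and 16.3 CPM (log2 fold change -1.97, SE 0.11, adjusted p = 4.4e-07), and Cd163, the receptor for haemoglobin complexes, from 8.83, 8.61 and 10.6 CPM to 2.23, 2.48 and 1.79 CPM (log2 fold change -2.11, SE 0.18, adjusted p = 7.9e-06). Adgre1, which encodes the macrophage marker F4/80, fell from 888 ± 15 to 696 ± 38 CPM (SD, n = 3). Of 27 tested genes of macrophage identity, 11 were lower and 7 higher, and the higher ones included Lpl, Cd36 and Fcgr1. Their summed level was 45326 to 50455 CPM in the libraries labelled Cbl-b-/- and 49867 to 57509 CPM in those labelled DKO. Lyz2, with its level given above, is a large part of this sum, and Apoe, Mrc1 and Cd163 are a small part. The sum therefore does not follow Apoe, Mrc1 and Cd163. Of 24 scavenger and efferocytosis genes, 9 were lower and 3 higher, while Axl and Msr1 did not pass (log2 fold changes 0.08 and 0.14).

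The complement system fell in its recognition chains and in the receptors for C5a. C1qa had 129, 137 and 153 CPM in the libraries labelled Cbl-b-/- and 48.9, 53.2 and 40.05 CPM in those labelled DKO (log2 fold change -1.56, SE 0.10, adjusted p = 1.4e-06), and C1qb and C1qc fell 1.93-fold and 1.95-fold. C3, the central component, rose from 21.6, 32.4 and 19.8 CPM to 105, 107 and 102 CPM (log2 fold change 2.09, SE 0.15, adjusted p = 2.0e-06). C5ar1 (ENSMUSG00000049130, chromosome 7, 16246743 to 16259540), the signalling receptor for C5a, fell from 496, 525 and 529 CPM to 101, 114 and 97.1 CPM (log2 fold change -2.31, SE 0.08, adjusted p = 1.2e-08). C5ar2, its neighbour and an alternative receptor, fell from 15.3, 15.5 and 18.1 CPM to 1.003, 0.859 and 1.31 CPM (log2 fold change -3.92, SE 0.18, adjusted p = 9.7e-08). Both receptors in the libraries labelled DKO lay also below every WT library, where C5ar1 had 252, 297 and 207 CPM and C5ar2 2.69, 2.59 and 2.93 CPM. Of 8 tested complement components, 2 were higher and 4 lower, and of 11 Fc gamma and complement receptors 4 were higher and 4 lower. Fcgr1, the high-affinity receptor for IgG, rose from 76.4 ± 6.1 to 132 ± 4.2 CPM and Fcgr4 from 8.05 ± 0.69 to 16.2 ± 0.46 CPM, while Fcgr3 fell from 275 ± 14 to 146 ± 1.7 CPM and the inhibitory Fcgr2b from 45.8 ± 4.8 to 31.3 ± 3.8 CPM (SD, n = 3).

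Transcription factors of the lineage were divided. Maf, a factor of resident-type macrophages, had 391, 425 and 448 CPM in the libraries labelled Cbl-b-/- and 175, 173 and 191 CPM in those labelled DKO (log2 fold change -1.23, SE 0.08, adjusted p = 8.7e-07). Id3, an inhibitor of helix-loop-helix factors, had 154, 161 and 168 CPM and 75.7, 82.7 and 68.1 CPM (log2 fold change -1.09, SE 0.08, adjusted p = 3.2e-06). Pparg and Nr1h3, nuclear receptors of lipid metabolism, rose from 21.8 ± 2.7 to 42.3 ± 2.8 CPM and from 14.1 ± 0.86 to 24.6 ± 1.8 CPM (SD, n = 3). Spi1, the macrophage master factor PU.1, did not pass (log2 fold change 0.12, adjusted p = 0.31). Of 30 tested factors, 8 were higher and 10 lower. Integrins were divided as well, with 5 of 16 higher and 6 lower. Itga8 fell from 21.6 ± 2.97 to 3.92 ± 0.36 CPM (log2 fold change -2.46, SE 0.14, adjusted p = 3.3e-07), Itga6 from 665 ± 39.6 to 414 ± 3.9 CPM and Itgal, a chain of LFA-1, from 225 ± 11 to 121 ± 6.8 CPM, while Itgax, which encodes CD11c, rose from 14.9 ± 1.2 to 28.8 ± 1.1 CPM (SD, n = 3).

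The other large decreases belonged to no single group. Dmpk, a serine/threonine kinase, fell from 139.9, 131 and 163 CPM to 30.5, 33.1 and 23.2 CPM (log2 fold change -2.32, SE 0.12, adjusted p = 2.7e-07). Gdf3, a ligand of the TGF-beta family, fell from 15.8 ± 0.67 to 3.16 ± 0.55 CPM, Ppp1r9a, a scaffold of protein phosphatase 1, from 7.24 ± 1.02 to 1.44 ± 0.27 CPM and Cbr2, a carbonyl reductase, from 4.05 ± 1.7 to 0.736 ± 0.22 CPM (SD, n = 3). Rpl29, a protein of the large ribosomal subunit, had 184, 220.2 and 204 CPM in the libraries labelled Cbl-b-/- and 4.24, 6.14 and 6.59 CPM in those labelled DKO (log2 fold change -5.16, SE 0.14, adjusted p = 3.1e-09), against 319.9, 332 and 345 CPM in WT. Ribosomal protein genes have processed copies in the genome, and the handling of reads of Rpl29 that also match a copy is not stated, so its level is uncertain.

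**Figure D2:**
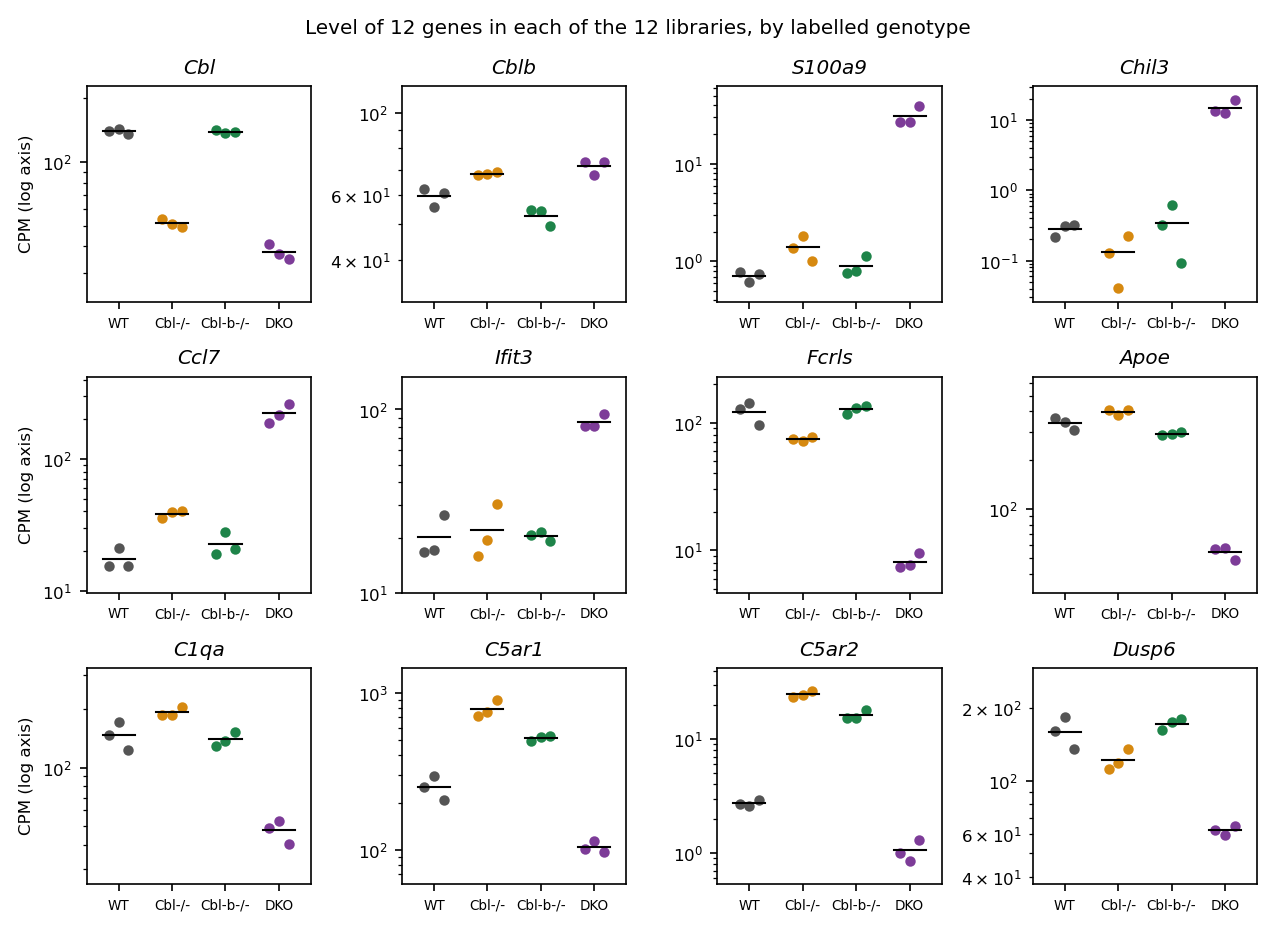
Levels in CPM on log axes of 12 genes in each of the 12 libraries, with 1 point per library and a bar at the mean of the 3 libraries of each labelled genotype. The libraries labelled DKO lie above all others for S100a9, Chil3, Ccl7 and Ifit3 and below all others for Fcrls, Apoe, C1qa, C5ar1, C5ar2 and Dusp6.

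Lipid genes moved apart. Ch25h, which makes an oxysterol that inhibits cholesterol synthesis, fell from 19.6, 26.4 and 22.3 CPM to 3.98, 4.45 and 4.82 CPM (log2 fold change -2.36, SE 0.14, adjusted p = 5.5e-07). Abcg1, a cholesterol exporter, rose from 46.01, 40.9 and 48.6 CPM to 106, 104 and 97.9 CPM (log2 fold change 1.19, SE 0.08, adjusted p = 1.7e-06), and Scd2, a fatty acid desaturase, from 51.8 ± 1.9 to 111 ± 5.05 CPM (SD, n = 3). Of 22 tested targets of the LXR receptors and genes of lipid efflux, 8 were higher and 3 lower (Apoe, Ch25h and Apoc2), and Abca1 did not pass (log2 fold change 0.21). Of 21 genes of cholesterol synthesis, 8 were higher and none lower, all by less than 2-fold. That count was 4 without any 1 of the libraries labelled Cbl-b-/-, 13 without the library labelled DKO 3 and 5 when scaled by total counts.

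Glycolysis and hypoxia genes rose by small amounts. Of 21 tested, 11 were higher and Ndrg1 was lower, with Ldha, lactate dehydrogenase, going from 1078 ± 39 to 1527 ± 64 CPM and Pgk1 from 867 ± 43 to 1191 ± 23 CPM (SD, n = 3). Without the libraries labelled Cbl-b-/- 2, Cbl-b-/- 3, DKO 1 and DKO 2 in turn, 7, 5, 7 and 6 were higher, and 6 when scaled by total counts. Stress genes were divided. The endoplasmic reticulum chaperones Calr, Hspa5 and Hsp90b1 were higher (log2 fold changes 0.48, 0.41 and 0.44), and Atf4, a transcription factor of amino acid stress, with Asns, Phgdh and Trib3, which it is known to induce, was lower (-0.28, -0.55, -0.55 and -0.84). In all, 5 of 20 were higher and 7 lower, and without any 1 of the libraries labelled Cbl-b-/- 2 were higher. Without the library labelled Cbl-b-/- 2, 4 were lower, and without the library labelled DKO 1, 3 were higher. Among 19 antioxidant genes, 6 were lower and 3 higher, and Gclc and Gclm, the subunits of the enzyme that limits glutathione synthesis, fell from 152 ± 3.5 to 91.3 ± 9.7 CPM and from 607 ± 12 to 372 ± 51 CPM (SD, n = 3). Of 26 lysosomal genes, 11 were higher and 3 lower, and without the library labelled Cbl-b-/- 2 or 3, 7 were higher. Gpnmb, a lysosomal membrane glycoprotein, rose from 3692 ± 450.5 to 5759.7 ± 275 CPM, while Mcoln3, a lysosomal cation channel, fell from 14.6 ± 0.54 to 4.58 ± 0.52 CPM (SD, n = 3). In the BCL2 family, Pmaip1, which promotes apoptosis, rose from 10.2 ± 1.4 to 27.1 ± 2.1 CPM and Mcl1, which blocks it, from 484 ± 7.6 to 702 ± 50.05 CPM, while Bcl2 fell from 33.5 ± 1.4 to 20.3 ± 1.2 CPM (SD, n = 3); in all, 4 of 16 were higher and 2 lower.

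Genes of cell division differed little between the groups. Of 23 mitosis genes tested, Ccnb1 was higher (log2 fold change 0.31, SE 0.08, adjusted p = 0.02) and none was lower, and the median log2 fold change was -0.01. The call of Ccnb1 was lost without any 1 of the libraries labelled Cbl-b-/-. Mki67, a marker of dividing cells, had 722, 734 and 726 CPM in the libraries labelled Cbl-b-/- and 680.1, 585 and 731 CPM in those labelled DKO (log2 fold change -0.13, adjusted p = 0.32). Without the library labelled DKO 3, 5 mitosis genes were lower. Of 25 genes of DNA replication, Pcna, the sliding clamp of DNA polymerase, was higher (log2 fold change 0.53, SE 0.11, adjusted p = 0.0062) and none was lower, while 4 were lower without the library labelled DKO 3 and 5 when scaled by total counts.

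**Figure D3:**
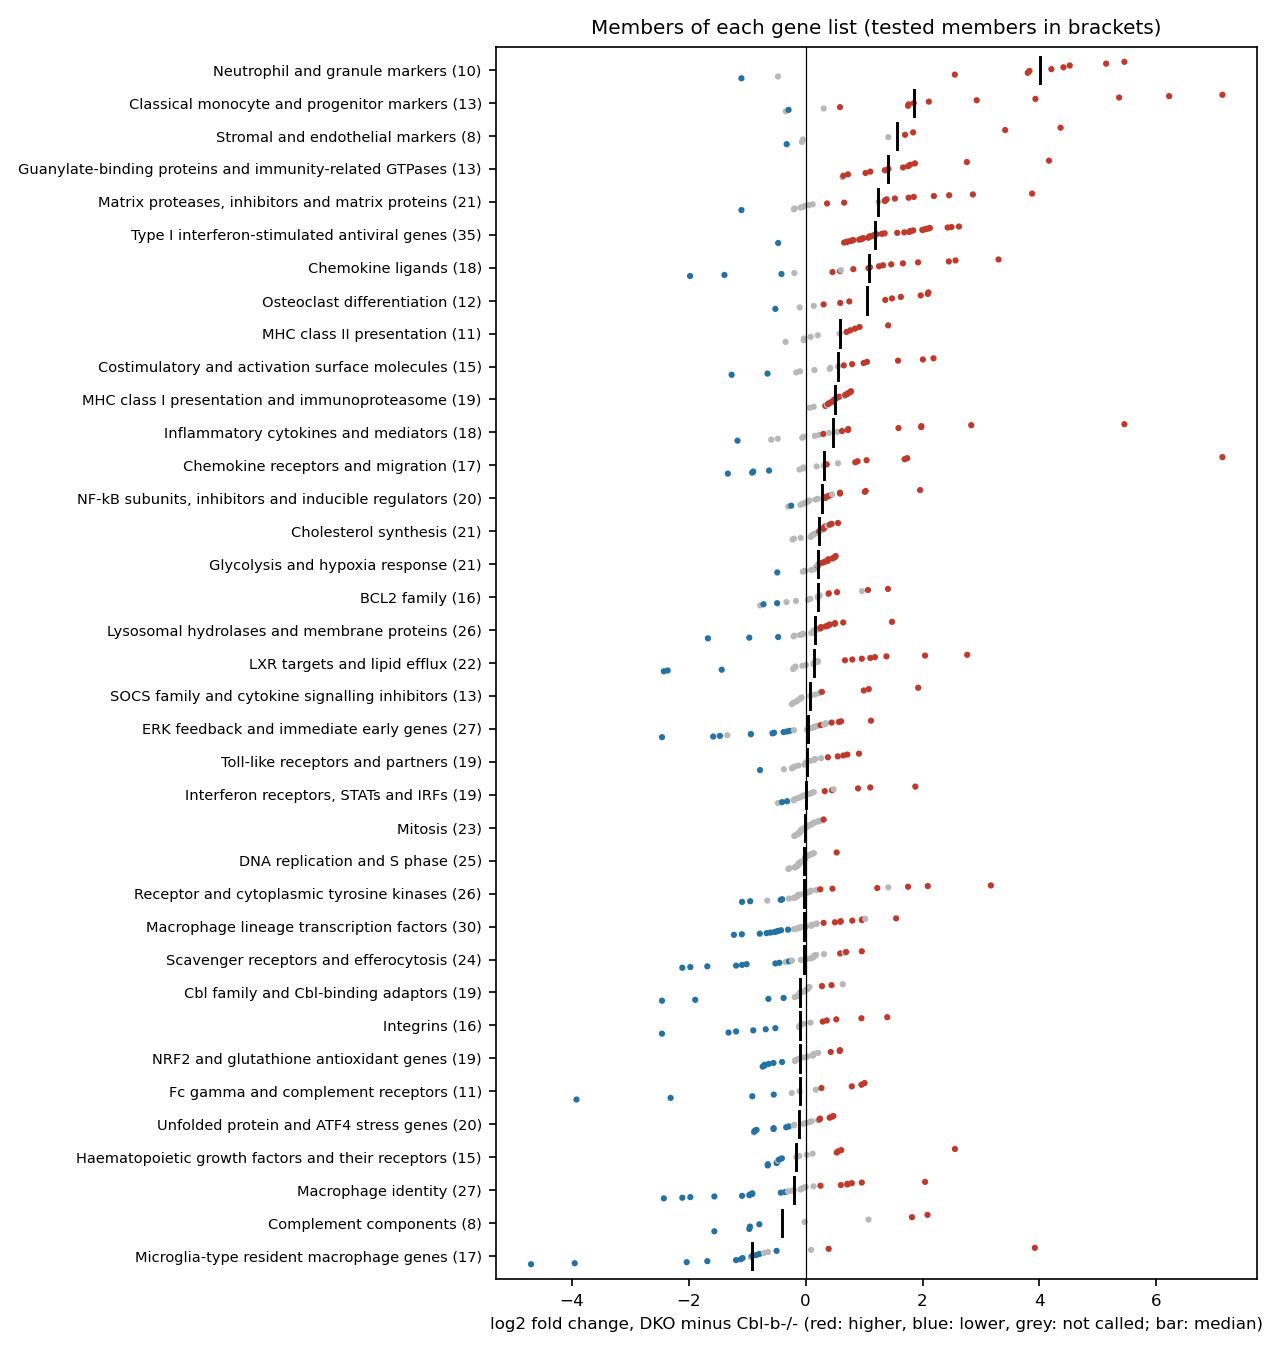
Log2 fold change (libraries labelled DKO minus those labelled Cbl-b-/-) of each tested member of the 37 lists with at least 8 tested members, ordered by the list's median, which a black bar marks. Red members were called higher, blue ones lower and grey ones did not pass; the interferon-stimulated genes lie to the right of 0 but for Ifi27, and the resident-type macrophage genes lie mostly to the left.

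The same labelled step, from Cbl present to Cbl absent, can be read with Cbl-b intact from the Cbl-/- and WT libraries, none of which belongs to the comparison above. The labels do not say whether the loss of Cbl was equally complete in both steps. Between Cbl-/- and WT, 2753 of 12232 genes passed (22.5%), 1484 higher and 1269 lower in Cbl-/-. Among the 12079 genes tested in both, 1000 were called in both, which is 37.3% of the 2681 calls between the libraries labelled DKO and Cbl-b-/- and 36.5% of the 2741 between Cbl-/- and WT. Of these 1000, 464 were higher in both, 390 lower in both, 71 higher in the libraries labelled DKO and lower in Cbl-/-, and 75 the other way round. The difference between the log2 fold changes was tested for each gene over all 12 libraries, and 1985 of 12671 genes passed (15.7%). Of the 2681 calls, 1412 (52.7%) also passed the test of the difference, among them all 146 with opposite directions.

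Some inflammatory regulators rose in both comparisons, with a difference that did not pass. Acod1 rose in both comparisons, with a log2 fold change of 2.83 between the libraries labelled DKO and Cbl-b-/- and 2.71 between Cbl-/- and WT (difference 0.12, SE 0.20, adjusted p = 0.74). Traf1 (1.96 and 1.45) and Src (2.09 and 1.55) likewise rose in both (adjusted p of the difference 0.14 and 0.19). Of the 20 NF-kB genes, 16 were higher in Cbl-/- than in WT, and none had a higher log2 fold change in the libraries labelled DKO by the test of the difference, while 4 had a lower one.

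The interferon-stimulated genes separated the comparisons. In Cbl-/- against WT, 3 of the 35 were higher and 3 lower, and for 34 the difference passed with the more positive value between the libraries labelled DKO and Cbl-b-/-. Ifi44 and Ifi44l were among those lower in Cbl-/-, with 2.96, 3.02 and 4.76 CPM and 0.06504, 0.165 and 0 CPM there against 35.5, 33.8 and 46.05 CPM and 10.5, 8.88 and 13.1 CPM in WT. Ifit3 had a log2 fold change of 0.16 between Cbl-/- and WT (adjusted p = 0.80), with 15.97, 19.5 and 30.4 CPM in Cbl-/- and 16.7, 17.2 and 26.4 CPM in WT, and a difference of 1.91 (SE 0.31, adjusted p = 0.0019). S100a9 had a difference of 4.21 (SE 0.37, adjusted p = 1.3e-06), and Fcrls one of -3.24 (SE 0.18, adjusted p = 1.3e-08), each beyond a smaller change the same way in Cbl-/-. Of the 17 resident-type genes, 10 were lower and none higher in Cbl-/- against WT, with a median log2 fold change of -0.26 against -0.91. The difference passed for 9 of them with the more negative value and for 2 with the more positive one. Of the 27 macrophage identity genes, 11 were lower and 3 higher in Cbl-/-. Class II genes went opposite ways. H2-Ab1 fell from 26.0000, 26.2 and 26.1 CPM in WT to 17.1, 14.6 and 14.5 CPM in Cbl-/-, and 7 of the 11 genes were lower there, while 5 were higher in the libraries labelled DKO. The difference passed for 5 of the 11. Mitosis genes differed in the reverse sense, with 22 of 23 higher and 1 lower in Cbl-/- against WT and 14 of 23 with a lower log2 fold change between the libraries labelled DKO and Cbl-b-/-. Dusp6 did not pass in Cbl-/- against WT (log2 fold change -0.39, adjusted p = 0.14), and its difference of -1.08 passed (SE 0.13, adjusted p = 4.0e-05).

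**Figure D4:**
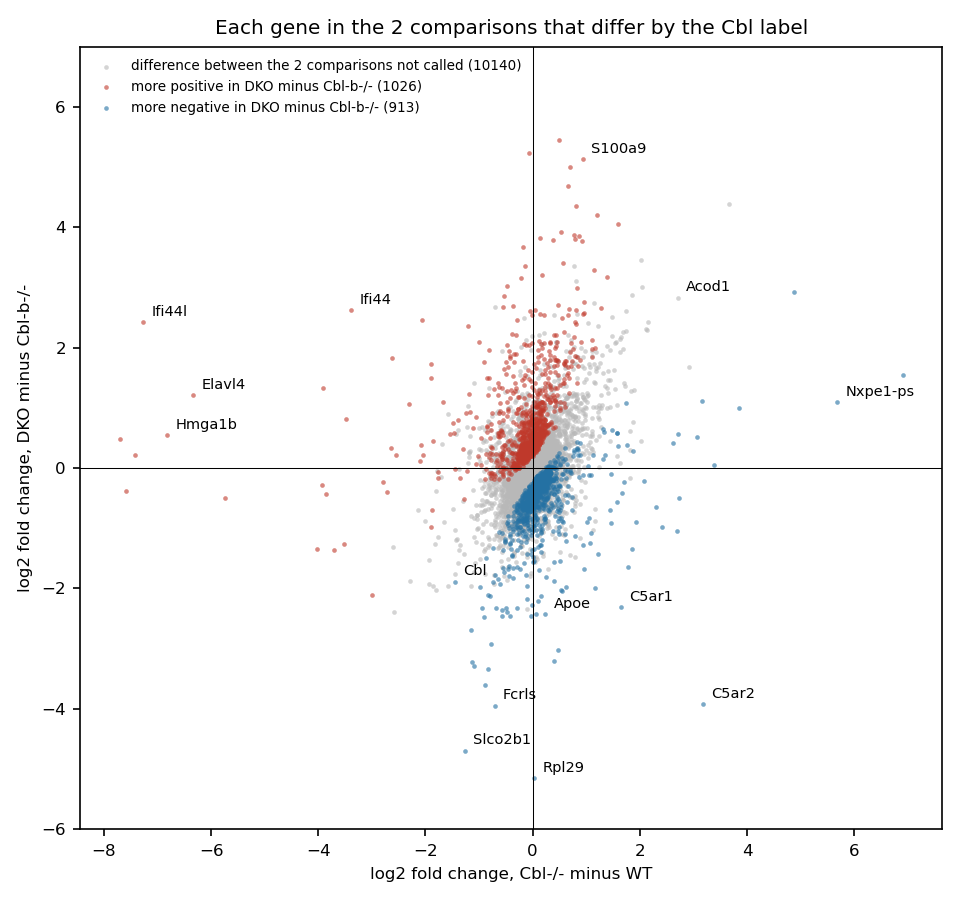
Each point is 1 of the 12079 genes tested in both comparisons, with its log2 fold change between Cbl-/- and WT on the horizontal axis and between the libraries labelled DKO and Cbl-b-/- on the vertical axis. Red and blue points are the 1026 and 913 genes whose log2 fold changes differed by the test over all 12 libraries; C5ar1 and C5ar2 lie at the lower right, and Ifi44 and Ifi44l at the upper left.

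Position along the genome was examined because a targeted allele brings its flanking chromosome with it. Within 5 Mb of Cbl on chromosome 9, 66 other genes were tested, and 6 were higher and 10 lower in the libraries labelled DKO, or 24.2% against 22.4% over all genes. Mcam, an adhesion molecule annotated next to Cbl, fell from 0.929 ± 0.37 to 0.175 ± 0.031 CPM (SD, n = 3; log2 fold change -2.39, SE 0.53, adjusted p = 0.0056). Within 5 Mb of Cblb on chromosome 16, 2 of 20 tested genes were higher and none lower (10.0%). These neighbours were named for their position after their values were seen.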

How the data were processed

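Polyadenylated RNA of 12 macrophage libraries, 3 for each of 4 genotypes, was sequenced with a stranded kit, per the labels' protocols. The deposited table holds raw counts of reads per gene over exons, as the authors named it, and GRCm38.p5 is the genome build per the submitters' processing notes. The sources used here name no aligner or counter and do not say whether strand was used. Of its 15555 genes, 15506 matched a symbol and a position in the GENCODE annotation of GRCm38.

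The 6 compared libraries were fitted alone with edgeR 4.0.16 in R 4.3.3 (low-count filter filterByExpr, trimmed-mean scaling, robust quasi-likelihood F test, Benjamini-Hochberg adjusted p under 0.05), Cbl-/- against WT likewise on its own 6, and the difference of both contrasts on all 12. CPM values use scaling factors over all 12 libraries. SE is that of the log2 fold change. The fit of the 6 compared libraries was tested on simulated data, with 100 genes changed 1.5-fold and 100 changed 2-fold. Of those past the low-count filter, 68.7% and 82.3% were recovered, and 6.37% of all calls were false. The simulation gave both groups the same spread per gene and changed far fewer genes than were called here. Its rates therefore need not hold for these data. The alternatives used other scalings (DESeq2 1.42.0 size factors, total counts), other filters, DESeq2's Wald test, limma 3.58.1 with voom, all 12 libraries, a replicate block, and each library left out.

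The members of the 42 gene lists were chosen with earlier results of these data known. Named are Cbl, Cblb, the 12 largest increases and 12 largest decreases with a mean log2 CPM of at least 1 and groups that did not overlap, up to 4 called members per list by smallest adjusted p, and the 5 largest differences each way. Other genes named were chosen after their values were seen. Promoter sequences are from RefSeq (GRCm38.p6), which matched 9606 of the 12348 tested genes.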

Additional observations from a re-analysis of the deposited data

Results flagged for a closer look

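Of the genes whose log2 fold change differed between the libraries labelled DKO and Cbl-b-/- and between Cbl-/- and WT, by edgeR's test over all 12 libraries, the 5 largest differences each way are given here, with adjusted p-values of 1.5e-05 and below.

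Ifi44l had the most positive difference among these, at 9.69 on the log2 scale. Its level was 10.5, 8.88 and 13.1 CPM in WT and 0.06504, 0.165 and 0 CPM in Cbl-/-, so that 1 library was at 0 there, against 27.8, 29.9 and 32.1 CPM in the libraries labelled DKO. The neighbouring Ifi44 differed by 6.01, with 2.96, 3.02 and 4.76 CPM in Cbl-/-. Elavl4, an RNA-binding protein best known from neurons, differed by 7.54, with 2.81, 3.28 and 2.82 CPM in WT, 0.0325, 0.0826 and 0 CPM in Cbl-/-, 2.64, 3.34 and 2.43 CPM in the libraries labelled Cbl-b-/- and 5.57, 6.39 and 7.61 CPM in those labelled DKO. Hmga1b differed by 7.38, with 236, 217 and 273 CPM in WT against 3.45, 1.405 and 1.49 CPM in Cbl-/-. It is a near-identical copy of Hmga1, so its counts are uncertain. For these 4 genes the Cbl-/- libraries were the lowest of the 12. Chil3 differed by 6.30, and here the libraries labelled DKO were the highest. It was too low to be tested between Cbl-/- and WT, with means of 0.132 and 0.281 CPM. Its difference therefore rests on few reads in those libraries.

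C5ar2 had the most negative difference, at -7.09, and C5ar1 next to it differed by -3.95. C5ar2 had 23.5, 24.2 and 26.3 CPM in Cbl-/- and 2.69, 2.59 and 2.93 CPM in WT, and C5ar1 707, 751 and 899 CPM and 252, 297 and 207 CPM, so both genes were higher in Cbl-/- than in WT and lower in the libraries labelled DKO than in those labelled Cbl-b-/-. Rpl29 differed by -5.18, with 338, 348 and 329 CPM in Cbl-/-, and is uncertain because of its processed copies. Nxpe1-ps, a pseudogene on chromosome 9 (48418321 to 48431959), lies within 5 Mb of Cbl. It differed by -4.62, with 29.2, 24.7 and 28.2 CPM in Cbl-/- against 0.642, 0.436 and 0.5001 CPM in WT. Between the libraries labelled Cbl-b-/- (0.581, 0.739 and 0.184 CPM) and DKO (1.23, 1.02 and 1.09 CPM) it did not pass. The part of its position in this was not tested. Slco2b1 differed by -3.43 and was lower in both comparisons, with 5.82, 4.05 and 6.05 CPM in Cbl-/-.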

How the results depend on the processing

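Of the 14 alternatives, 13 kept the count of genes called between the libraries labelled DKO and Cbl-b-/- within 1.5 times of 2760, from 1871 to 3590, and no named gene reversed. Fitted with all 12 libraries, which share one estimate of the spread, 4211 genes passed (1974 lower), and between Cbl-/- and WT 1251 passed (720 higher and 531 lower) against 2753. Under total-count scaling the median log2 fold change of all genes moved from 0.0028 to -0.09, with 1083 genes higher and 1933 lower; for the difference of both contrasts it moved to -0.106, with 711 more positive and 1719 more negative, against 1063 and 922. With each library left out in turn, 1082 to 1984 genes were higher and 771 to 1606 lower; between Cbl-/- and WT 1867 to 2965 passed (1025 to 1554 higher, 842 to 1411 lower, the lowest without WT 1), and 1448 to 2780 differences passed (789 to 1443 more positive, 659 to 1337 more negative). The causes were not tested. The replicate block gave 2050 calls, 2446 between Cbl-/- and WT and 1815 for the difference. Deviations of libraries with the same number correlated at 0.011, -0.018 and -0.054, and those with different numbers at -0.045 to 0.053. These values show no pairing by number but cannot exclude one. Of 150 named genes, Ccl22, Ccnb1, Cish, Ppbp, Ptpn6 and Socs1 lost their call in 4 to 8 alternatives. Requiring 5 CPM or more in 3 libraries tests fewer low genes, and 5 granule, 6 monocyte and 1 stromal marker were then higher, with 5 cytokines and mediators. Genes at a few reads per library, as Plac8 and Lcn2 were in the libraries labelled Cbl-b-/-, have fold changes set by those few reads.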

Other observations

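Chromosomes differed little in their share of called genes between the libraries labelled DKO and Cbl-b-/-, from 17.6% of those tested on chromosome 8 to 28.5% on chromosome 6 among the autosomes. Of 13 genes tested on the mitochondrial chromosome, 4 were lower and none higher, with a median log2 fold change of -0.18.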
